A study of Mus musculus with 6 samples.

Results

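Vesicle exocytosis genes were examined in ileal tuft cells, the chemosensory epithelial cells that release IL-25 and other mediators into the intestinal mucosa. Members were all genes of the table whose symbols name a synaptotagmin (Syt), synaptotagmin-like protein (Sytl), syntaxin (Stx), syntaxin binding protein (Stxbp), vesicle-associated membrane protein (Vamp), SNAP family protein (Snap followed by a number) or Unc13 protein. The rule took 61 of 23420 genes and used no measured value. RNA-sequencing was performed on 6 libraries of 1 group, each labelled as a separate mouse replicate. No treatment is named for the mice, which were of the C57BL/6J strain and heterozygous for Gfi1b-eGFP (labelled Gfi1b-eGFP and C57BL/6), so every mouse carried an allele with enhanced GFP at the locus of Gfi1b, a transcription factor that marks tuft cells in the epithelium. Mice of the study were used at 6 to 12 wk of age, and cells were sorted for GFP and EpCam and against CD45. Libraries were prepared by a modified SMART-Seq2 protocol per the methods, and the labels also name 3′ polyA and droplet preparations without assigning them to a library. No other epithelial population or genotype was sequenced among these libraries, so the levels describe sorted tuft cells and were not compared with a control. Values are TPM, the abundance of a gene's transcripts relative to all transcripts of the library after correction for length, which allows genes of a library to be compared. The read depth behind them is unknown, so a gene listed at 0 cannot be called absent.

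SNARE proteins fuse a vesicle with its target membrane. An R-SNARE on the vesicle, such as a VAMP, zippers with Q-SNAREs on the target membrane, a syntaxin of the Qa type with either a SNAP-23 or SNAP-25 type protein (Qbc) or separate Qb and Qc proteins. Munc18 proteins, encoded by Stxbp genes, hold and guide syntaxins, and Munc13 proteins, encoded by Unc13 genes, open syntaxin to prime the vesicle. Synaptotagmins are membrane proteins with C2 domains, several of which bind calcium and trigger fusion, and synaptotagmin-like proteins tether vesicles by binding the small GTPase Rab27. Nerve and endocrine cells are known for Vamp2, Stx1a, Snap25 and Syt1, whereas exocrine, epithelial and blood cells often use Vamp8, Stx3 or Stx4, Snap23, Stxbp2 and Unc13d. The question here was which of these genes the tuft cells expressed.

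The most abundant members were Vamp8, which encodes an R-SNARE of secretory granules and late endosomes, and Stxbp2, which encodes Munc18-2. In GRCm38 the Vamp8 gene occupies chromosome 6, positions 72385223 to 72390703 (minus strand), and the Stxbp2 gene chromosome 8, positions 3630955 to 3643644 (plus strand). Their promoters are shown because these genes lead their classes, with each CG dinucleotide in capitals. The sequences are from RefSeq on GRCm38.p6, read 5′ to 3′ on the strand of the gene, and end where the GENCODE M21 gene begins. They span chr6:72390704-72390917 for Vamp8 and chr8:3630859-3630954 for Stxbp2.
Vamp8: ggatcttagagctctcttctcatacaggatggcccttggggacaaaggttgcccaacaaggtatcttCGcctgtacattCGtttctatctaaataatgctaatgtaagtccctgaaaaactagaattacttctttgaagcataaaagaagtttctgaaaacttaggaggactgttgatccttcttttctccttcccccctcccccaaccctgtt
Stxbp2: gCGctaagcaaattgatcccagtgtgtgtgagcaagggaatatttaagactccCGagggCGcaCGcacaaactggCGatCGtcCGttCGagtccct
In the whole 250 bases before the RefSeq start, Vamp8 had 3 CG dinucleotides and Stxbp2 had 17, against a median of 6 over the 32851 promoters of the table. The octamer ATGCAAAT, the letters that POU factors such as the tuft cell regulator Pou2f3 recognise, or its reverse complement ATTTGCAT was in neither window, and 1.60% of all 32851 windows held one of them. Of the 61 members, 45 had a promoter in the table, and 1 of their 56 windows held the octamer.

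The libraries were first checked against their label. All 14 tuft cell markers examined were listed above 0 in all 6 libraries with means of at least 20 TPM, among them Dclk1 at 628.3 ± 130 TPM and Pou2f3 at 182.0 ± 48.7 TPM (SD, n = 6). Together they had 12431, 11149, 7381, 8981, 7446 and 7501 TPM in replicates 1 to 6. Transcripts of other cell types were also present. The 7 Paneth cell markers were all above 0 and summed to 6358, 3569, 3838, 21573, 13333 and 7321 TPM, led by Defa24. The 7 goblet cell markers summed to 1155, 1053, 2495, 2324, 2986 and 5118 TPM, led by Zg16, and the 8 enterocyte markers to 16261, 12417, 7700, 12051, 8297 and 9684 TPM, led by Fabp1. All 7 Paneth markers were highest in replicate 4, 6 of the 7 goblet markers in replicate 6 and 11 of the 14 tuft markers in replicate 1. Of the enterocyte markers 6 were highest in replicate 4, while Fabp1 and Apoa4 were highest in replicate 1. Of 12 enteroendocrine markers, 3 were above 0 in every library, and the sum of 385.6 to 538.1 TPM was mostly Sct. Of 8 immune cell markers all were above 0, with Ptprc, the gene of CD45, at 112.3 ± 42.0 TPM (SD, n = 6) despite the CD45-negative gate. Of 5 markers of enteric neurons and glia, 4 (Elavl4 and S100b among them) were at 0 in every library, and Tubb3 was listed at 0.23 TPM in replicate 4 only. These libraries are bulk samples, in which fewer cells of a type and less RNA per cell cannot be told apart.

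Of the 61 members, 37 (60.7%) were listed above 0 in all 6 libraries, where 47.2% of all genes in the table were. A mean of at least 1 TPM was reached by 37 members, against 51.4% of all genes, and a mean of at least 10 TPM by 18 members (29.5%), against 29.8% of all genes. The share of well expressed members was therefore close to that of the table. At 0 in every library were 9 members (14.8%), against 32.9% of all genes. Among these were Snap91, Unc13c, Syt3, Syt6, Syt9, Syt10, Syt16 and Syt17. Snap91 encodes the clathrin adaptor AP180 of synaptic vesicle recycling, not a SNARE. The median of the members' means was 1.84 TPM, against 1.24 TPM over all genes. Summed over the 61 members, the libraries had 1445, 1383, 1153, 1060, 1191 and 999.8 TPM in replicates 1 to 6. Rn45s, the ribosomal RNA precursor, took 25.1%, 24.8%, 23.1%, 26.7%, 32.6% and 32.2% of the TPM of these libraries. Gm20594 took 2.13%, 2.09%, 1.56%, 5.36%, 5.18% and 5.64%, so replicates 1 to 3 stood apart from replicates 4 to 6 in this transcript. Both lowered all other values accordingly.

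**Figure D1:**
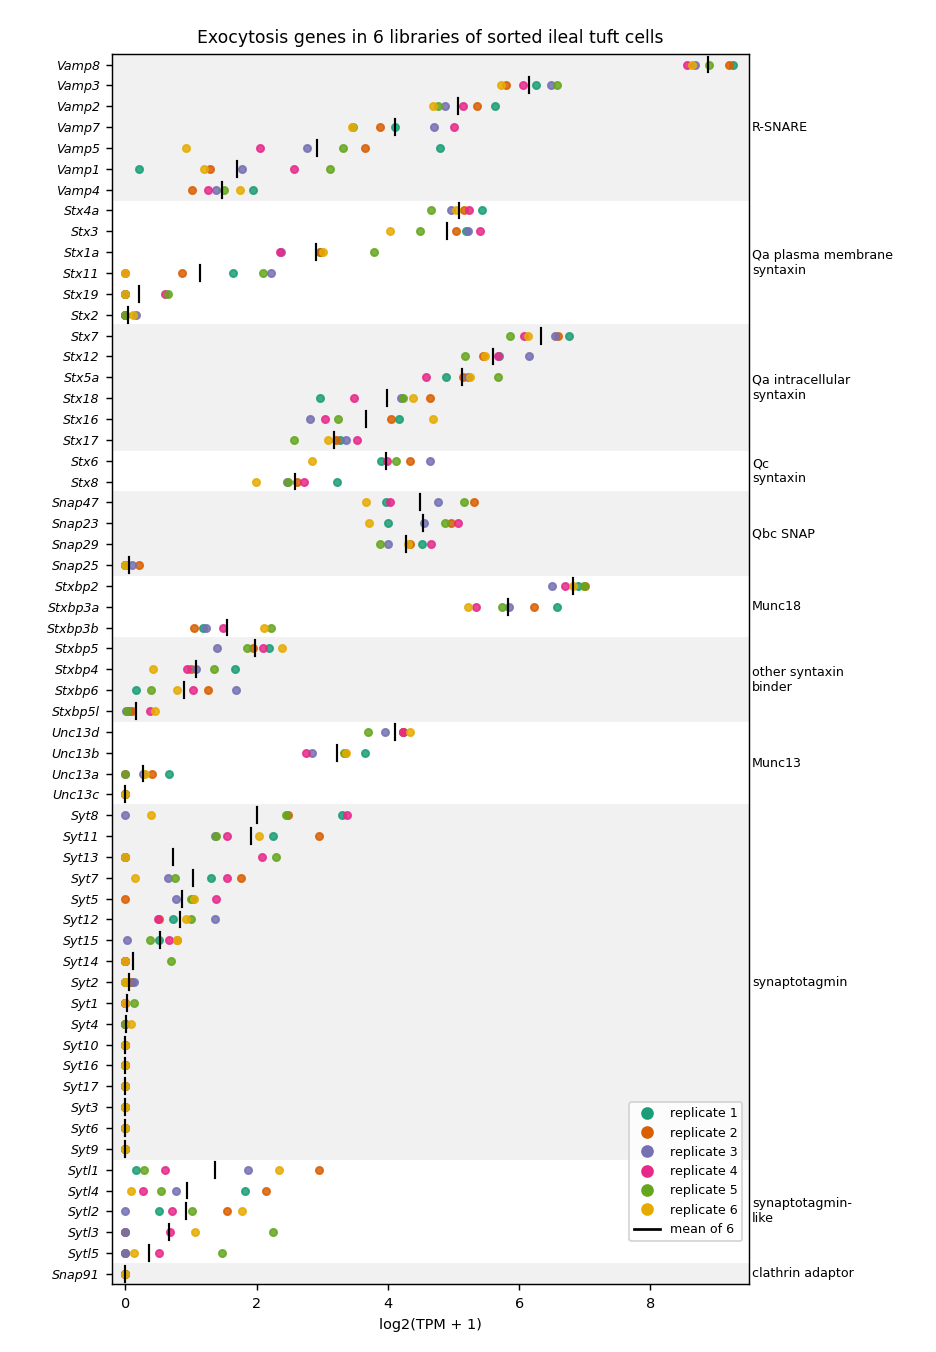
Level of 59 exocytosis genes on the log2(TPM + 1) scale (x axis), 1 row per gene grouped by the class of protein it encodes and ordered by mean TPM within the class. Points are the 6 libraries and black ticks the mean of their log2 values; Vamp8 lies to the right of all other genes in every library, and the synaptotagmins and synaptotagmin-like genes lie at the left.

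R-SNAREs of the VAMP family were the most abundant class, at 614.2 ± 115 TPM in sum (SD, n = 6), and all 7 members were above 0 in every library. Replicates 1 to 6 had 614.4, 587.6, 411.3, 377.0, 473.6 and 395.8 TPM of Vamp8, which gave 476.6 ± 102 TPM on average (SD, n = 6). It ranked between 194 and 306 among the 23420 genes of a library. It was highest in replicates 1 and 2, as were the sum of the tuft markers and the sum of the enterocyte markers. Its lowest value was in replicate 4, where the Paneth markers and 6 of 8 enterocyte markers were highest. In replicate 6, where 6 of 7 goblet markers were highest, Vamp8 was second to lowest. The part of other cell types in its level was not tested. Vamp8 alone made up 72.8% to 82.8% of the summed VAMP transcripts and stood 4.66 to 10.7 times above the next VAMP of the same library.

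Vamp3, which encodes cellubrevin of recycling endosomes, came next at 75.8, 55.0, 88.2, 65.7, 94.7 and 51.9 TPM in replicates 1 to 6. Vamp2, the VAMP of neuronal and endocrine vesicles, was listed at 48.7, 39.8, 28.2, 34.3, 26.1 and 24.7 TPM, below Vamp3 in 6 of 6 libraries. Vamp7, which encodes a tetanus-insensitive VAMP of late endosomes and apical transport, had 16.3, 13.7, 25.2, 31.2, 10.1 and 9.92 TPM. The order Vamp8, Vamp3, Vamp2 and Vamp7 was the same in every library. Vamp5, first described in muscle, ranged from 0.90 TPM in replicate 6 to 26.8 TPM in replicate 1, and its mean of 9.54 TPM fell to 6.08 TPM without replicate 1. Vamp1, the paralog of Vamp2, had a mean of 2.99 TPM (0.16 to 7.64) and Vamp4 of the trans-Golgi network 1.84 TPM (1.03 to 2.84). The order of Vamp5, Vamp1 and Vamp4 differed between libraries.

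**Figure D2:**
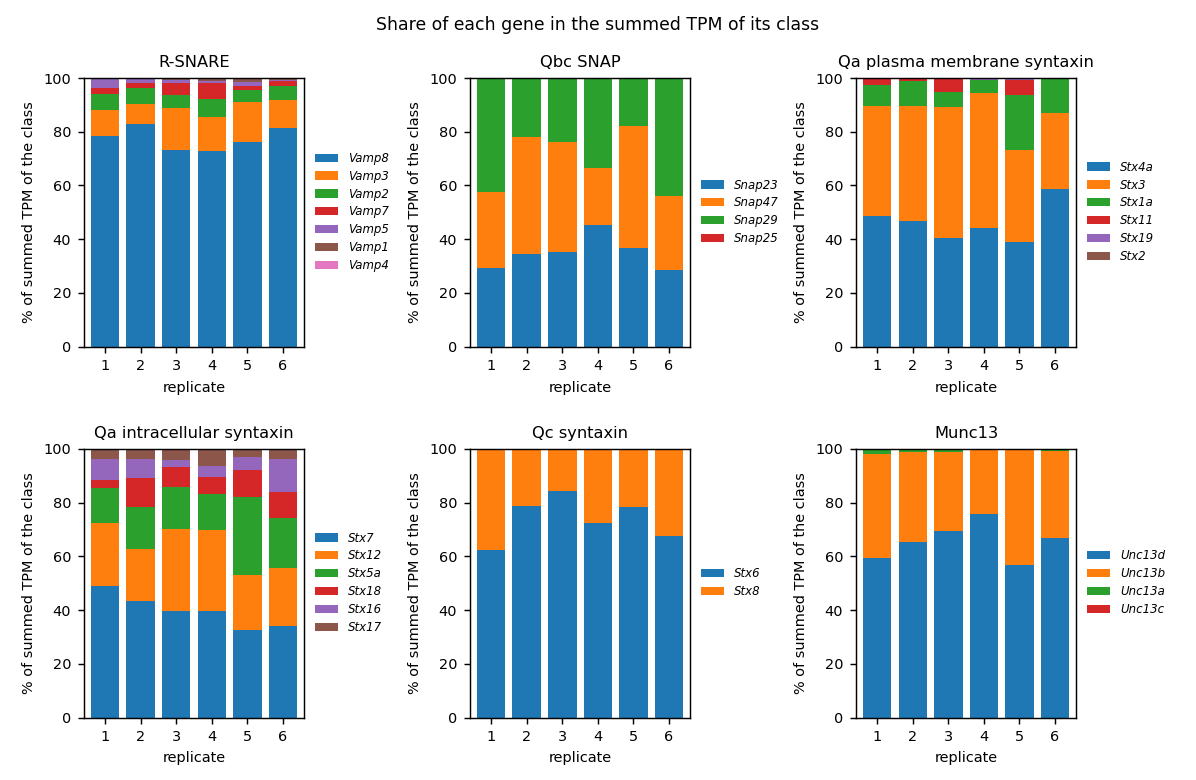
Share of each gene in the summed TPM of its class (y axis, percent) in replicates 1 to 6 (x axis), for the VAMPs, the SNAP family, the syntaxins of the plasma membrane and of intracellular membranes, the Qc syntaxins and the Munc13 genes. Vamp8 fills 72.8% to 82.8% of its class, while the SNAP family is divided among Snap23, Snap29 and Snap47.

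Syntaxins of the plasma membrane were divided between Stx4a and Stx3. For Stx3, the syntaxin of apical membranes in polarised epithelia, replicates 1 to 6 gave 35.5, 32.0, 36.5, 41.5, 21.4 and 15.3 TPM. Stx4a, which encodes syntaxin 4 of basolateral membranes, had 42.4, 34.6, 30.3, 36.7, 24.3 and 32.0 TPM. The ranges overlapped and Stx4a was the higher gene in 4 of 6 libraries, with Stx3 higher in replicates 3 and 4. Stx1a, the syntaxin of nerve terminals and endocrine cells, was listed at 6.78, 6.79, 4.16, 4.11, 12.8 and 7.03 TPM, below both in all 6 libraries. Its highest value was in replicate 5, where the 12 enteroendocrine markers summed to 488.0 TPM, below the 538.1 TPM of replicate 2. Sct made up most of both sums (358.17 and 473.65 TPM, respectively). The markers other than Sct were together highest in replicate 5. Of the 12 markers, Chga, Chgb and Tph1 were highest in replicate 5. Pyy, Sst, Neurod1 and Neurog3 were at 0 there, and Sct, Gcg, Cck, Nts and Ghrl were higher in another library. The part of enteroendocrine transcripts in the level of Stx1a was not tested. Stx11, known from the granules of cytotoxic lymphocytes, was at 0 in replicates 4 and 6 and at 0.82 to 3.65 TPM in the others. Stx19 was above 0 in replicates 4 and 5 only, at up to 0.56 TPM, and Stx2 in replicates 3 and 6 only, at up to 0.12 TPM.

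Syntaxins of intracellular membranes were together more abundant, at 202.5 ± 26.6 TPM, than those of the plasma membrane, at 72.5 ± 12.3 TPM (SD, n = 6). Stx7, which acts in fusion with late endosomes, led this class in every library with 107.9, 95.4, 92.1, 66.6, 56.9 and 69.4 TPM in replicates 1 to 6. Stx12, which encodes syntaxin 13 of recycling endosomes, had 50.9, 42.9, 70.4, 49.9, 35.2 and 43.8 TPM. Stx5a, the syntaxin of the Golgi, had 28.6, 34.2, 36.2, 22.8, 50.3 and 37.3 TPM and exceeded Stx12 in replicate 5 only. Stx7 was highest in replicates 1 to 3, while Stx5a was highest in replicate 5. Lower levels were found for Stx18 of the endoplasmic reticulum (16.0 ± 6.37 TPM), for Stx16 of the trans-Golgi network (13.2 ± 7.27 TPM) and for Stx17, which acts on autophagosomes (8.19 ± 1.88 TPM; SD, n = 6 each). Stx18 was listed at 6.77, 23.9, 17.5, 10.2, 17.8 and 19.9 TPM, and 31.0% of its 25-base stretches also lie in other genes (19.1% in Gm42858), so its level is uncertain. Stx16 was listed at 17.0, 15.5, 6.04, 7.25, 8.43 and 24.8 TPM. The order of Stx18 and Stx16 differed between libraries, with Stx18 higher in 4 of 6. Stx6, a Qc-SNARE of the trans-Golgi network and endosomes, had 13.8, 19.3, 23.9, 14.8, 16.4 and 6.16 TPM and was above Stx8, a Qc-SNARE of late endosomes with a mean of 5.19 TPM, in 6 of 6 libraries.

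In the SNAP family, 3 genes were expressed at like levels and the neuronal member was at or near 0. For Snap23, which encodes the widely expressed plasma membrane Qbc-SNARE, replicates 1 to 6 gave 15.1, 30.3, 22.5, 32.7, 28.2 and 12.1 TPM. Snap47, whose product is mostly found on intracellular membranes, had 14.6, 38.6, 26.1, 15.3, 34.9 and 11.8 TPM. Snap29, which acts in endosomal and autophagosomal fusion, had 21.9, 19.2, 14.98, 24.2, 13.7 and 18.8 TPM. Each of these led the class in at least 1 library, so no order held. Snap25 of nerve terminals was at 0 in replicates 1, 4, 5 and 6, and at 0.16 and 0.07 TPM in replicates 2 and 3. Of the 25-base stretches in Snap47 transcripts, 10.44% also lie in transcripts of Jmjd4, so some of its reads may not be told apart from those of Jmjd4.

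Munc18 genes were led by Stxbp2, with 118.1, 127.5, 89.2, 102.4, 125.7 and 112.1 TPM in replicates 1 to 6. Stxbp2 averaged 112.5 ± 14.7 TPM (SD, n = 6) and, with a coefficient of variation of 13.0%, varied least among the 18 members whose mean reached 10 TPM. Stxbp3a, which encodes Munc18c, a partner of syntaxin 4, had 94.5, 74.0, 56.5, 39.7, 52.4 and 36.1 TPM, and Stxbp2 exceeded it 1.25-fold in replicate 1 and 3.10-fold in replicate 6. Stxbp3b, annotated as a pseudogene, had 1.07 to 3.67 TPM. It shares 83.7% of its 25-base stretches with Stxbp3a, so the division of reads between them is uncertain. The other syntaxin binding genes were low. Stxbp5, which encodes the inhibitor tomosyn, had a mean of 3.03 TPM. Means were 0.132 TPM for its paralog Stxbp5l (0.086 TPM without replicate 6), 1.18 TPM for Stxbp4 and 0.968 TPM for Stxbp6, the gene of amisyn.

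Among the Munc13 genes, Unc13d was the most abundant in 6 of 6 libraries. Its product, Munc13-4, primes granules in cytotoxic lymphocytes and other blood cells. The level of Unc13d was 17.8, 17.9, 14.4, 17.8, 11.9 and 19.2 TPM in these replicates, in order from 1 to 6. Unc13b, the gene of Munc13-2, had 11.6, 9.16, 6.19, 5.74, 9.11 and 9.30 TPM. Unc13a, the gene of neuronal Munc13-1, was at 0 in replicates 4 and 5 and at 0.58, 0.32, 0.21 and 0.23 TPM in replicates 1, 2, 3 and 6. The ranges of Unc13d and Unc13b did not overlap, with 11.9 TPM the lowest value of the first and 11.6 TPM the highest of the second. The 8 immune markers, led by Ptprc, summed to 209.3, 222.0, 127.3, 176.4, 287.3 and 332.1 TPM in replicates 1 to 6, where Unc13d was lowest in replicate 5 and highest in replicate 6. Of these markers the lymphocyte granule genes Gzma, Gzmb and Nkg7 were highest in replicates 5 and 6. Ptprc was lower in both than in the other libraries. In replicates 5 and 6, in order, the T cell gene Cd3e was at 1.52 and 11.6 TPM and Cd3d at 0.98 and 1.18 TPM. Cd8a was at 8.42 and 1.03 TPM in them, and Itgae at 1.8 and 16.2 TPM. The part of lymphocyte transcripts in the level of Unc13d was not tested.

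Synaptotagmins were less abundant than the SNAREs. The 17 synaptotagmin genes summed to 16.3, 14.9, 4.56, 18.99, 13.7 and 6.26 TPM in replicates 1 to 6, and the 26 SNARE genes among the members to 1165, 1117, 960.9, 860.4, 956.5 and 795.6 TPM. The SNARE sum was thus 45.3 to 211 times the synaptotagmin sum of the same library. No synaptotagmin reached a mean of 5 TPM, and 4 of 17 were above 0 in every library, namely Syt7, Syt11, Syt12 and Syt15. Of all genes in the table, 47.2% were. Syt8 had the highest mean, 4.60 ± 4.01 TPM (SD, n = 6), with 8.88, 4.59, 0, 9.36, 4.48 and 0.31 TPM. Syt11 had 3.76, 6.70, 1.58, 1.91, 1.60 and 3.11 TPM. Syt8 was above Syt11 in 3 of 6 libraries, and Syt11 was level with Syt12 in replicate 3, so no synaptotagmin can be placed above the others. Both belong to the isoforms known to lack calcium-dependent membrane binding.

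Of the 8 isoforms known to bind calcium through their C2 domains (Syt1, Syt2, Syt3, Syt5, Syt6, Syt7, Syt9 and Syt10), a grouping made after the values were seen, 4 were at 0 in every library. Of the other 9 isoforms 2 were at 0 in every library, as were 32.9% of all genes in the table. Together the 8 isoforms had 2.57, 2.44, 1.38, 3.51, 1.76 and 1.17 TPM, against 13.7, 12.4, 3.18, 15.5, 11.9 and 5.09 TPM for the other 9. Syt7, the high-affinity sensor of slow and asynchronous release, was the most abundant of them on average, at 1.46, 2.38, 0.57, 1.91, 0.68 and 0.11 TPM. Syt5 had 0 to 1.60 TPM. Syt1, the fast sensor of nerve terminals, was at 0 in 5 libraries and at 0.09 TPM in replicate 5, and Syt2 was at most 0.10 TPM. Of the others, Syt13 was above 0 in replicates 4 and 5 only, at 3.21 and 3.91 TPM, and its mean of 1.19 TPM fell to 0.782 TPM without replicate 4 and 0.642 TPM without replicate 5. Syt12 had a mean of 0.825 TPM and Syt15 of 0.462 TPM. Syt14 was listed above 0 in replicate 5 alone (0.62 TPM) and Syt4 in replicate 6 alone (0.06 TPM).

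Synaptotagmin-like genes were low as well, at 3.07, 12.1, 3.36, 2.39, 7.21 and 7.75 TPM in sum. A different gene led in different libraries, Sytl1 in replicates 2, 3 and 6, Sytl4 in replicate 1, Sytl2 in replicate 4 and Sytl3 in replicate 5. Sytl4, the gene of granuphilin on endocrine granules, had 2.53, 3.42, 0.70, 0.21, 0.45 and 0.06 TPM. Sytl2 had 0.42, 1.93, 0, 0.63, 1.02 and 2.41 TPM. Sytl1 ranged from 0.12 to 6.75 TPM, and without replicate 2 its mean fell from 2.39 to 1.52 TPM and that of Sytl4 from 1.23 to 0.790 TPM. Sytl3 and Sytl5 were at 0 in replicates 1 to 3 and were highest in replicate 5, at 3.76 and 1.76 TPM. The GTPases that these proteins bind were more abundant. Rab27a and Rab27b together exceeded the summed synaptotagmin-like genes 4.60-fold to 32.9-fold within a library.

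For 10 pairs of paralogs, 9 of which are given here, the difference in log2(TPM + 1) within each library was tested by flipping signs over libraries (exact permutation test, two-sided), in which p cannot fall below 0.03125 with 6 libraries. In 7 of these 9 pairs the same gene was higher in 6 of 6 libraries, and each of the 7 had this smallest p and a Benjamini-Hochberg adjusted p of 0.0391 over all 10 pairs. The pairs were chosen with earlier results of these data known, and the adjusted p depends on how many had the same sign throughout. With the same sign in all libraries the p follows from the signs and adds nothing to the count of libraries. The size of a difference is therefore read from its mean and SD. On this scale Snap23 exceeded Snap25 by 4.48 ± 0.528, Unc13d exceeded Unc13a by 3.84 ± 0.252 and Vamp8 exceeded Vamp2 by 3.80 ± 0.247 (SD, n = 6 each). Stx3 was above Stx1a by 1.99 ± 0.957, least in replicate 5 (0.70), and Syt7 was above Syt1 by 1.00 ± 0.623, a difference between genes listed near 0. The sizes against Snap25, Unc13a and Syt1 depend on the 1 TPM added before the logarithm, and were 9.93, 7.34 and 5.82 with 0.01 TPM. Among the other pairs, Stxbp2 exceeded Stxbp3a by 0.99 ± 0.487 and Unc13d exceeded Unc13b by 0.90 ± 0.397 (SD, n = 6).

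The remaining pairs did not pass the threshold. Stx3 was 0.19 ± 0.453 below Stx4a, within a range of -1.02 to 0.26 over the libraries (p = 0.4375 and, adjusted over the 10 pairs, 0.486 by the exact permutation test). Sytl2 and Sytl4 differed by -0.01 ± 1.09, with Sytl2 higher in replicates 4 to 6 and Sytl4 in replicates 1 to 3, the sets that also differ in Gm20594 (p = 1 by the same exact test, also after adjustment). The spread of these differences leaves room for a change of either sign, so equal levels were not shown.

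**Figure D3:**
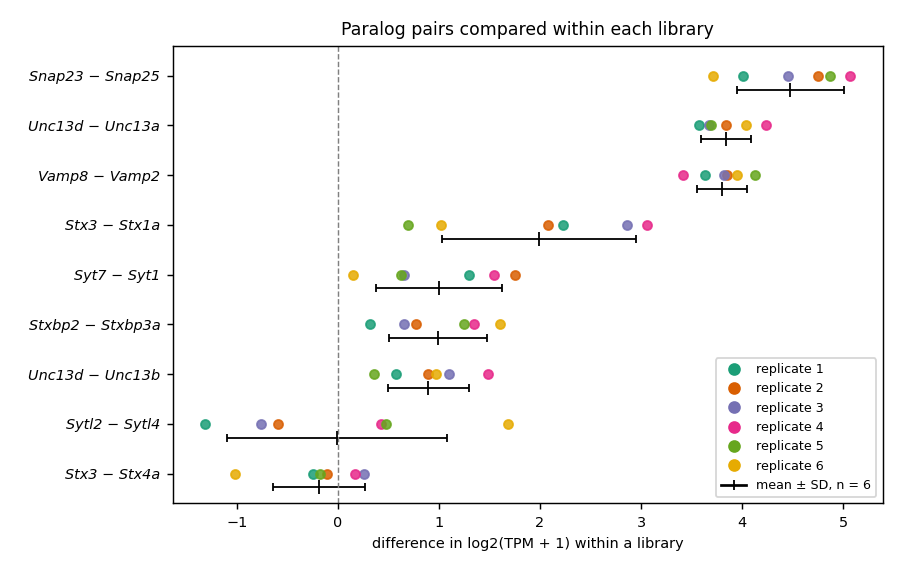
Difference in log2(TPM + 1) between 2 paralogs of the same library (x axis) for 9 pairs (y axis). Coloured points are the 6 libraries and the black bar below them is the mean ± SD; all points lie right of 0 for 7 pairs, and points lie on both sides of 0 for Sytl2 against Sytl4 and Stx3 against Stx4a.

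Among the 18 members that reached 10 TPM on average, the coefficient of variation between libraries had a median of 27.1%, from 13.0% for Stxbp2 to 55.2% for Stx16. Over the 6986 genes of the table at that level the median was 31.0%. Libraries did not order the members alike. Replicate 1 held the highest value of 5 of the 18, replicate 4 of 4, replicate 2 of 3, and replicates 3, 5 and 6 of 2 each. Of the 6986 genes of the table at that level, 22.0%, 22.2%, 28.2%, 10.6%, 8.07% and 9.004% were highest in replicates 1 to 6. The lowest value of 8 of the 18 was in replicate 6, where 22.2% of the 6986 genes were lowest, and of 5 of the 18 in replicate 5, where 25.8% were. The 8 were Vamp3, Vamp2, Vamp7, Stx3, Stx6, Snap23, Snap47 and Stxbp3a. Rn45s and Gm20594 took their largest shares together in replicates 5 and 6, and after rescaling without them, an alternative chosen after seeing the data, 6 of the 18 were lowest in replicate 6 (15.6% of all genes at that level) and 6 in replicate 3 (20.4%). In replicate 6 the summed goblet markers were highest, and the 5 stem cell markers summed to 326.4 TPM, against 468.7 to 803.2 TPM elsewhere. Of these stem cell markers Olfm4 and Smoc2 were lowest in replicate 6, and Lgr5, Ascl2 and Slc12a2 in other libraries. The part of other cells in the lower levels was not tested.

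**Figure D4:**
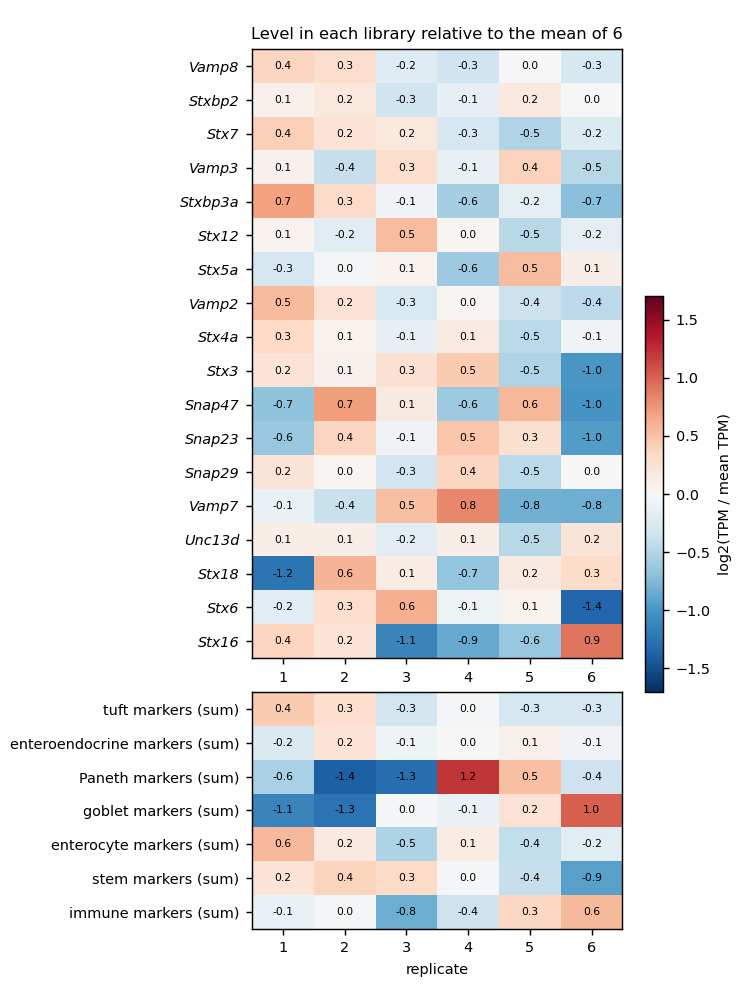
Level in each library relative to the mean of 6 libraries, as log2(TPM / mean TPM) in colour and in figures, for the 18 exocytosis genes that reached 10 TPM on average (upper panel, ordered by mean) and for summed marker genes of 7 cell types (lower panel). Columns are replicates 1 to 6. Vamp8, the summed tuft markers and the summed enterocyte markers are highest in replicates 1 and 2, Paneth markers in replicate 4 and goblet markers in replicate 6.

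Genes that act with these members were taken from 9 lists with 81 genes, all found in the table, of which 55 were above 0 in every library and 9 were at 0 in every library. Of all genes in the table, 47.2% were above 0 in every library and 32.9% were at 0 in every library. A mean of 20 TPM was reached by 19.4% of all genes and by 21 of these 81. Among SNARE recycling genes, Napa (alpha-SNAP) was at 78.5 ± 8.81 TPM and the ATPase gene Nsf at 39.7 ± 17.1 TPM (SD, n = 6), while Napb, a neuronal paralog of Napa, was at most 0.89 TPM. Of 13 Rab genes of exocytic transport, 12 were above 0 in every library, and 7 reached 20 TPM on average. These were Rab11a at 163.7 ± 21.6 TPM, Rab8a at 111.4 ± 24.2 TPM, Rab11b at 45.3 ± 12.7 TPM, Rab10 at 41.9 ± 10.44 TPM, Rab27b at 39.1 ± 16.3 TPM, Rab27a at 26.9 ± 13.8 TPM and Rab3d, a Rab of exocrine granules, at 25.02 ± 8.64 TPM (SD, n = 6 each). All 9 exocyst genes, whose complex tethers vesicles to the plasma membrane, were above 0 in every library, led by Exoc6 at 26.3 TPM and Exoc4 at 21.1 TPM.

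SNAREs outside the symbol rule were all expressed. The 10 genes were above 0 in every library, and 7 reached 20 TPM on average, namely Use1 (116.4 TPM), Vti1b (67.3 TPM), Ykt6 (40.1 TPM), Sec22b (37.4 TPM), Bet1l (30.9 TPM), Gosr2 (26.6 TPM) and Bnip1 (20.6 TPM), most of which act between the endoplasmic reticulum, the Golgi and endosomes. Of 5 other genes of the Munc18 superfamily, Scfd1 of transport from the endoplasmic reticulum was highest at 34.4 TPM. Of 13 priming and tethering genes, 6 were above 0 in every library and 4 (Rims1, Rims3, Rims4 and Cadps) were at 0 in every library. Over all genes in the table, 47.2% were above 0 in every library and 32.9% were at 0 in every library. Erc1, a scaffold gene, was the highest of the 13 genes at 16.9 ± 5.17 TPM. Cadps2, which encodes a priming protein of dense core vesicles, had 14.4 ± 4.35 TPM, and Rims2, an active zone gene, had 2.00 to 7.05 TPM. Doc2g, which encodes a C2 domain protein, had 7.58 ± 3.42 TPM, and Rph3al, which encodes the Rab effector Noc2, 5.55 ± 3.56 TPM (SD, n = 6).

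Of 4 complexin genes, whose products clamp and assist SNARE complexes, Cplx1 and Cplx4 were at 0 in every library and Cplx2 had 0.30 to 2.09 TPM. Of 6 extended synaptotagmin and ferlin genes, Esyt1 (19.5 TPM) and Esyt2 (12.9 TPM), whose products tether the endoplasmic reticulum to the plasma membrane, were above 0 in every library. Myof had up to 1.7 TPM and Esyt3 up to 2.07 TPM, and Dysf and Otof were at 0 in every library. Of the 17 genes of vesicle membranes and granule content, Syngr2, the widely expressed synaptogyrin, had 212.4 ± 57.8 TPM and Sypl, the widely expressed relative of synaptophysin, 54.6 ± 14.6 TPM (SD, n = 6). Synaptophysin itself (Syp) was at 0 in replicates 1 to 4 and at most 0.46 TPM, and Sv2b was at 0 in every library. Scg5, a granin-like gene of dense core vesicles, had 51.8, 19.7, 5.60, 13.1, 6.28 and 4.65 TPM in order of replicate, highest in replicate 1.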

How the data were processed

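The authors' alignment used Bowtie, with read pairs as input and UCSC transcripts of the mm10 assembly as reference. RSEM values were deposited in TPM, 1 column per library, for 23420 genes and with 2 decimals. TPM was used as deposited. It keeps no depth, so no count test, counting interval or detection limit was computed. RSEM divides reads that align to several genes, so values of similar or overlapping genes are uncertain. Of 60 members with GENCODE M21 transcripts, 7 shared over 10% of their 25-base stretches, on either strand, with another gene (Stxbp3b, Stx18, Sytl3, Syt12, Syt4, Stxbp3a and Snap47). The strand setting is not given in the sources used here.

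Columns were matched to replicates by number. Paralogs were compared within libraries on the log2(TPM + 1) scale, which compresses differences between low genes, by an exact sign-flip permutation test over 64 assignments, with Benjamini-Hochberg adjustment over 10 pairs. Stx4, Stx5 and Stxbp3 are Stx4a, Stx5a and Stxbp3a in the table. P-values refer to these libraries only, and where all libraries had the same sign they follow from the signs and not from the spread. Alternatives were pseudocounts of 0.1 and 0.01, values under 0.1 TPM set to 0, median-of-ratios rescaling, rescaling without Rn45s and Gm20594, the exact Mann-Whitney test and leaving out each library. Members, lists and pairs were chosen with earlier results of these data known. Results of some genes, among them 1 pair, are not reported here. The other members were named, those of at least 10 TPM on average and those in pairs with the value of every library, and of the other lists the genes of at least 20 TPM on average; lower genes of those lists were named after their values were seen. Gene positions are from GENCODE M21 and promoters from RefSeq, both on GRCm38, the assembly of mm10. The test and the rescaling were tested on simulated data. Statistics were computed in Python 3.11.15 (scipy 1.17.1, pandas 2.3.3, numpy 2.4.6) and figures drawn in matplotlib 3.10.9.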

Additional observations from a re-analysis of the deposited data

Results flagged for a closer look

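In 6 of 62 measures (52 members listed above 0 in any library and 10 paralog differences), 1 library lay far from the others, by the ratio of its gap from the nearest library to the whole range (beyond Dixon's 95% critical value). Chance places about 1 in 20 measures beyond it, but a gene above 0 in a single library has a ratio of 1 by construction, so the 6 were not set against a chance count. Replicate 5 was the high library in 5 of the 6. Stx1a had 12.8 TPM in replicate 5, and its next highest value was 7.03 TPM (ratio 0.664), and its mean was 6.95 TPM with and 5.77 TPM without replicate 5. Sytl5 was at 1.76 and at most 0.43 TPM (ratio 0.756; mean 0.382 with and 0.106 TPM without it), and Sytl3 at 3.76 and at most 1.09 TPM (ratio 0.71; mean 0.908 and 0.338 TPM). Syt14 (0.62 TPM) and Syt1 (0.09 TPM) were above 0 in replicate 5 alone (ratio 1 each), and Syt4 in replicate 6 alone, at 0.06 TPM (ratio 1). In replicate 5 the enteroendocrine genes Chga, Chgb and Tph1 were at 40.4, 59.6 and 11.0 TPM, against at most 6.41, 13.8 and 0.91 TPM elsewhere. Sct, Gcg, Cck, Nts and Ghrl were higher in another library, and Pyy, Sst, Neurod1 and Neurog3 were at 0 in replicate 5. The 12 enteroendocrine markers summed to 488.0 TPM in replicate 5 and to 385.6 to 538.1 TPM over the libraries. Most of each sum was Sct, at 358.17 TPM in replicate 5 and 330.83 to 473.65 TPM over the libraries. Without Sct, the remaining markers were together highest in replicate 5. The part of enteroendocrine transcripts in these 5 genes was not tested.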

How the results depend on the processing

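Of the 9 paralog differences given, 8 kept their direction and their side of the adjusted threshold under all pseudocounts, filters, rescalings and the exact Mann-Whitney test, and their direction with each library left out. A pseudocount or rescaling cannot change which of 2 genes is higher in a library. Sytl2 minus Sytl4 was -0.01 and passed no threshold under any alternative. It turned to 0.017 with a pseudocount of 0.1, 0.00091 with values under 0.1 TPM set to 0, 0.021 with median-of-ratios rescaling and 0.039 without Rn45s and Gm20594, and with each library left out it ran from -0.35 to 0.25. It turned positive without replicate 1, 2 or 3. The sizes of differences from genes near 0 depended on the pseudocount, with Snap23 minus Snap25 reaching 9.93, Unc13d minus Unc13a 7.34 and Syt7 minus Syt1 5.82 at 0.01, where Vamp8 minus Vamp2 was 3.84 and the order of sizes changed. With 5 libraries p cannot fall below 0.0625, so the values with a library left out carry no test. Where 37 members were above 0 in all libraries, 37 had a mean of at least 1 TPM and 18 of at least 10 TPM, the counts were 34 above 0 with values under 0.1 TPM set to 0, 41 and 22 without Rn45s and Gm20594, and 35 at 1 TPM by the median over libraries. They stayed within 37 to 39 above 0 in all libraries, 36 to 38 with a mean of at least 1 TPM and 18 to 19 with at least 10 TPM when each library was left out. The means of 21 of 52 members moved beyond 1 SD without Rn45s and Gm20594, which raises every value, and none did under median-of-ratios rescaling. No paired analysis was possible because the 6 libraries form 1 group; genes were paired within libraries. Depth is not kept by TPM, so how far the zeros of Snap25, Unc13c and the synaptotagmins reflect shallow sequencing cannot be given.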
